A study of Homo sapiens with 84 samples.

Results

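The distal peaks described here were open in the DMSO libraries, given no inhibitor, of all 9 triple-negative breast cancer cell lines. A peak is a stretch of genome where the Tn5 transposase cuts often in ATAC-seq, which reads where DNA is accessible. Members were chosen by 2 values: an assigned distance of over 3000 bp to a transcription start site (TSS), and a mean of at least 2 CPM (counts scaled to the library total) in the DMSO libraries of each line. The rule found 17439 peaks, 2.02% of the 861439 peaks of the series and 2.14% of its 813267 distal peaks. They were 60.0% of the 29046 peaks at or above that level in all 9 lines, and the other 11607 lay within 3000 bp of a TSS. Since DMSO levels chose the members, their levels are given as a description.

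The lines BT-20, BT-549, HCC1143, HCC1395, HCC1937, MDA-MB-231, MDA-MB-468, SUM-149PT and SUM-159PT each had DMSO and a combination of 5 uM tazemetostat, an inhibitor of EZH2, with 5 uM ipatasertib, an inhibitor of AKT. MDA-MB-231, MDA-MB-468, SUM-149PT and SUM-159PT also had each agent alone. Each of the 26 groups had 3 libraries, 78 in all, with 12292571 to 21459284 counts in peaks. The labels list 84 samples, and the 6 of HCC1806 were not analysed here. For MDA-MB-468 the labels describe tazemetostat from day -5 and ipatasertib from day 0 in medium with 2% FBS, with collection at 24 hours and 50000 cells in each transposition, and no other schedule is given for the other lines. All are established lines, and the labels do not say whether the 3 libraries of a group came from separate cultures. Counts of 76 of the 78 pairs of libraries of a group differed by no more than sampling noise. They in fact differed by less. In peaks with at least 20 counts in a pair, observed over sampling variance had a median of 0.851, and 0.694 over members. Independent sampling gives 1, so the libraries may not be independent, and the reason was not tested. The 3 libraries were therefore summed as 1 sample, and the line was the replicate, so no p-value is given within a line. Both pairs that differed by more held HCC1395 DMSO replicate 3.

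Distal accessible elements include enhancers, which bind transcription factors and act on promoters at a distance, insulators bound by CTCF, and promoters of transcripts that an annotation does not count. Elements open in every cell type are often promoters, CTCF sites or elements of genes that all cells use, while enhancers usually differ between cell types. EZH2 is the catalytic subunit of Polycomb repressive complex 2 (PRC2), which trimethylates histone H3 at lysine 27 and keeps developmental genes silent. AKT is the kinase downstream of PI3K that phosphorylates FOXO transcription factors, which then leave the nucleus, and that activates mTORC1.

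The label "distal" held for most members and failed for a part of them. The deposited distance refers to 1 assigned gene, and a peak far from that gene's TSS can hold the start of another. Among the 16700 members on chromosomes with starts in the RefSeq table, 1871 (11.2%) contained a RefSeq start and 2956 (17.7%) lay within 3000 bp of one. The authors' table labelled 2259 members (13.0%) as 5' UTR, against 0.917% of the other 795828 distal peaks, and 67.2% of the 2162 such members that could be placed held a RefSeq start. Of the 16700, 3560 lay near a RefSeq start or carried the 5' UTR label and 13140 (78.7%) did neither. The 739 members on chromosome 8 could not be placed and are in neither class. The 13140 are called strictly distal below. The gene assigned by the authors was that of the nearest RefSeq start for 44.9% of the placed members, so an assigned gene names a neighbourhood and not a target.

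Members that hold a RefSeq start can be shown by sequence. The 4 stretches below are the 250 bases before a RefSeq start that lies inside a member, 5' to 3' on the strand of the gene, from RefSeq (GRCh38.p14). They are shown because the DLG2 and PHACTR1 peaks had the 2 largest rises with the combination, the CDKN1B peak is a gene's own promoter under a distance of 30461 bp, and the EGFR peak holds an internal start. Capitals mark matches, on either strand, to a set of 13 short motifs.

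DLG2 (chr11:83724926-83725175, minus strand, no match): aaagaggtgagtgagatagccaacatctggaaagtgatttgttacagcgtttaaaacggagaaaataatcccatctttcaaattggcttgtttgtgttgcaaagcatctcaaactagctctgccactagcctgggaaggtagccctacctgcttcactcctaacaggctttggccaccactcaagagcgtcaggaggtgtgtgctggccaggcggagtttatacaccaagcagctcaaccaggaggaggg
PHACTR1 (chr6:12957057-12957306, plus strand, RUNX and AP-1): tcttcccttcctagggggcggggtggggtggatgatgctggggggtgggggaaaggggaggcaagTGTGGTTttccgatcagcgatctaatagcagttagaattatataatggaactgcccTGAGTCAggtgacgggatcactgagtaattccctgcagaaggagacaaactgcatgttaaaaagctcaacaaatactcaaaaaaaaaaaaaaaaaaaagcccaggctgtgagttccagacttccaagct
EGFR (chr7:55109589-55109838, plus strand, AP-1, AP-1, TEAD and C/EBP): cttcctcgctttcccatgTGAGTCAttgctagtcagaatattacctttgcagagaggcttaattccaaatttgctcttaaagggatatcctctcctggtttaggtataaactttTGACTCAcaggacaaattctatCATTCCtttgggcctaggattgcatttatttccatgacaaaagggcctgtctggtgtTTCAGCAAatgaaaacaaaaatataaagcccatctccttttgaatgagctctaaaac
CDKN1B (chr12:12717118-12717367, plus strand, no match): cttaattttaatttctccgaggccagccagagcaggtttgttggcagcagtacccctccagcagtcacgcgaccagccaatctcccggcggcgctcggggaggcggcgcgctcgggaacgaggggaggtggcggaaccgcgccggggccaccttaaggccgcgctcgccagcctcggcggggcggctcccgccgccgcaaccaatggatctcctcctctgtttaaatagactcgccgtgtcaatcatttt

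The EGFR stretch lies in a member 89764 bp from the assigned TSS of EGFR, the epidermal growth factor receptor, and holds AP-1 and TEAD letters. The CDKN1B stretch is rich in G and C, and CDKN1B encodes the CDK inhibitor p27. Over the 2536 RefSeq windows inside members (250 bases before to 50 after a start, both strands searched), the AP-1 letters TGANTCA occurred in 9.27%, against 4.19% of 12734 windows in peaks near a TSS open in all lines and 7.71% of all 35116 windows. The ETS letters CCGGAAGT were in 5.32%, 9.02% and 4.14% of the same sets, the GATA letters AGATAA in 5.28%, 3.92% and 10.3%, the TEAD letters CATTCC in 13.8%, 10.3% and 14.0%, and the CTCF core in 3.04%, 2.93% and 2.41%. GC content over these windows was 64.3%, 66.7% and 58.7%. A match is a run of letters and not a measured binding site, and these windows cover only members with an annotated start.

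Of the 1562 miRNA hairpins in the RefSeq table, 9 lay wholly inside 8 members. The strictly distal member at chr19:13835719-13836617 held the hairpins of MIR24-2 and MIR27A, whose mature products are printed with the seed (bases 2 to 8) in capitals, because this peak sits in the run with the most members.

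hsa-miR-24-3p: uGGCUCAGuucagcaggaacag
hsa-miR-24-2-5p: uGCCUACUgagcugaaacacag
hsa-miR-27a-3p: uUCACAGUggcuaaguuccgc
hsa-miR-27a-5p: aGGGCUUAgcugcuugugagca

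The 4 seeds differ from each other. This peak was assigned to C19orf53 at 61263 bp. It ranged in DMSO from 6.50 CPM in BT-20 through a median of 12.5 to 31.0 in MDA-MB-468, and with the combination from 7.44 through 13.6 to 29.6. The lines overlapped almost wholly between treatments, and the log2 fold change was -0.17 (SE 0.0938; edgeR adjusted p = 0.272). The other hairpins inside members were MIR10392, MIR11399, MIR1199, MIR3649, MIR564, MIR6089 and MIR9718. None of the 8 peaks passed the test with the combination, where their log2 fold changes lay between -0.17 and -0.0222.

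Members were wide and strong among distal peaks. The rule itself favours such peaks, since CPM are not scaled for peak width, so these contrasts are a description. The median width of members was 1254 bp against 284 bp for the other distal peaks. Their median distance to the assigned TSS was 32952 bp against 63316 bp. By distance, 17.9% lay at up to 10000 bp, 44.4% at 10000 to 50000 bp, 17.6% at 50000 to 100000 bp and 19.9% at up to 1000000 bp, with 33 members beyond. By class, 37.1% were in introns, 29.6% intergenic and 19.8% in exons, against 54.5%, 34.7% and 9.64% of the other distal peaks. Chromosome 19 gave the highest share of its distal peaks, 4.57% (806 members), followed by chromosome 22 with 3.58% and chromosome 17 with 3.54%. Chromosomes 13 and 18 gave 1.07% each.

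Most members varied by a few fold between lines. The mean DMSO level had a median of 9.09 CPM over members, with the tenth and ninetieth percentiles at 4.21 and 21.8 CPM and the highest at 80.4 CPM. The median over all peaks was 0.237 CPM. Line medians ran from 7.76 CPM in BT-20 to 9.57 CPM in MDA-MB-231. The highest line exceeded the lowest by a median of 3.1 times, by at most 2 times in 15.5% of members and by more than 10 times in 767 (4.4%). BT-549 was the highest line for 21.2% of members and MDA-MB-231 for 18.4%, while BT-20 was the lowest for 14.9% and MDA-MB-231 for 5.57%. Members took 18.2 to 22.1% of all counts in DMSO, 17.8 to 21.5% with the combination, 19.8 to 22.0% with ipatasertib and 17.4 to 21.3% with tazemetostat.

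**Figure D1:**
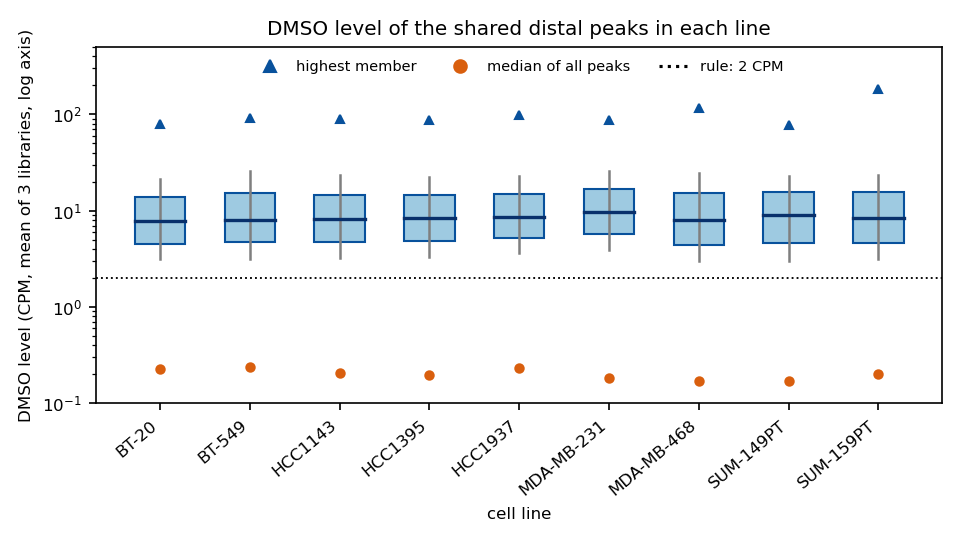
DMSO level (CPM on a log axis, mean of 3 libraries) of the 17439 shared distal peaks in each line. Boxes span the quartiles with the median as a line, whiskers the tenth to ninetieth percentile, triangles the highest member, and dots the median of all peaks; member medians lie between 7.76 and 9.57 CPM.

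Of members, 85.4% reached 2 CPM in each of the 27 DMSO libraries whose means chose them. In libraries that the rule did not use, openness largely held. The mean of the combination libraries reached 2 CPM in every line for 88.6%, and all 26 group means did for 86.3%. Just inside the rule was a peak assigned to SGK1, an AKT-related kinase, whose lowest line (SUM-149PT) was at 2.0 CPM. Just outside were peaks assigned to CRKL and FAM178B, whose lowest line (MDA-MB-231) also rounds to 2.0 CPM.

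The 4 most even members each lay within 3000 bp of a RefSeq start. The peak assigned to TMC1 at chr9:72526688-72528220 ranged from 22.0 CPM in BT-20 to 24.8 CPM in HCC1395 and holds the start of an uncharacterised transcript. A peak at 27930 bp from the TSS of RALGDS, a Ral guanine nucleotide exchange factor, ranged from 54.4 to 62.3 CPM. Peaks over the starts of CEP170, a centrosomal protein, and of TMBIM6, an inhibitor of cell death in the endoplasmic reticulum, ranged from 48.8 to 58.2 and from 28.1 to 34.4 CPM. Of the 8 strongest members 5 lay near a start, and 2 on chromosome 8 were not placed. The peak assigned to MIR4316 (48.9 to 115 CPM) covers the start of SEPTIN9, a septin, that assigned to LILRB3 (54.4 to 90.3 CPM) the start of MBOAT7, and that assigned to LOC105377763 (45.2 to 91.7 CPM) the start of SQSTM1, the autophagy receptor p62. The other was strictly distal, an intergenic peak 6484 bp from the assigned TSS of KLF9, a Kruppel-like factor, at 53.3 CPM in BT-20, a median of 70.0 and 77.5 CPM in SUM-149PT.

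The most uneven members passed the rule in every line and were many times higher in 1 or a few. An intergenic peak 56658 bp upstream of EGFR (chr7:54960265-54962359) was at 2.08 CPM in BT-549, at a median of 16.2 and at 81.9 CPM in MDA-MB-468. A peak of TMPRSS2, a transmembrane serine protease, ranged from 2.14 CPM in HCC1395 to 62.8 CPM in MDA-MB-468. A peak over a start of CD59, an inhibitor of complement, ranged from 2.32 CPM in BT-549 to 67.8 CPM in MDA-MB-468. MDA-MB-468 was thus the highest line at all 3. CPM values are not corrected for DNA copy number, which was not analysed here.

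Members were assigned to 8529 genes, of which 6524 (76.5%) were protein coding, 1569 lncRNA and 192 miRNA genes. A single member was assigned to 4688 genes, 5 or more to 671 and 10 or more to 76. GSE1, which encodes a subunit of histone deacetylase complexes, had 28 members along 487 kb, 24 of them strictly distal, with mean levels of 3.18 to 44.1 CPM. SHB, an adaptor of receptor tyrosine kinase signalling, had 19, of which 18 were strictly distal. NYNRIN also had 28, C19orf53 26, MIR877 20 and XG 19, and fewer of these were strictly distal (6, 14, 10 and 9). Protein kinase C genes PRKCH and PRKCE had 16 and 13 members, MYOF, a membrane repair protein, 12, and CD44, the hyaluronan receptor, 11.

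Members formed 13450 runs when those within 10000 bp of each other were joined, and 61.7% of members stood alone. There were 113 runs of 5 or more members, with 698 members in all. The longest by count was that around MIR24-2 and MIR27A (chr19:13825351-13862827, 15 members in 37.5 kb). A run of 12 lay at NEAT1, the lncRNA that builds paraspeckles, and runs of 11 lay at LMNA, which encodes the nuclear lamins A and C, and at DDIT4, an inhibitor of mTORC1, with DNAJB12. Runs of 10 lay at the lncRNAs MALAT1 and LINC-PINT, a run of 8 at ANXA2, a calcium-dependent membrane-binding protein, and runs of 7 at ATF3 and at CD44. The NEAT1 and CD44 runs were strictly distal throughout, while 6 of the 11 members at LMNA and 5 of the 7 at ATF3 lay near a start or carried the 5' UTR label. NEAT1 stood out by density, since 11 of its 15 distal peaks (73.3%) were members. The strongest of these, inside the gene at chr11:65426594-65428804, ranged from 31.1 through 53.3 to 76.0 CPM.

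With the combination, members more often fell than rose, and by small amounts. Against DMSO over 9 lines, 276 members rose (1.58%) and 1029 fell (5.9%) at an adjusted p under 0.05, while among all 410603 peaks tested 3.52% rose and 2.74% fell. The median log2 fold change of members was -0.066, against -0.0116 for all peaks, and 0 members rose and 1 fell by a log2 fold of 1 or more (1.12% and 0.137% of all peaks). The DMSO libraries both chose the members and set the baseline here, so these counts are a description. When peaks were instead chosen at 2 CPM on the combination libraries (18025 peaks, an alternative added after seeing the data), 3.28% rose and 4.07% fell. Strictly distal members gave 195 rises and 728 falls (1.48% and 5.54%). Peaks near a TSS open in all lines gave 1.3% and 7.59%, and other distal peaks with a mean of at least 2 CPM gave 3.07% and 4.3%.

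The fall was not shared by all lines. Line medians of members were -0.276 in MDA-MB-468, -0.212 in SUM-159PT, -0.148 in BT-549 and -0.0822 in MDA-MB-231, and between -0.011 and 0.0829 in the other 5. HCC1395 was the highest. Members below 0 in all 9 lines numbered 1024 (5.87%), against 2.76% of all peaks, and those above 0 in all 9 lines numbered 264 (1.51%), against 1.79%. Leaving out 1 line at a time gave 415 to 993 falls and 150 to 330 rises. The falls dropped by more than 1.5 times without BT-549 (415), SUM-159PT (514), HCC1143 (538), MDA-MB-231 (571), HCC1937 (580) or MDA-MB-468 (615), and the rises without HCC1937 (150), BT-549 (155), SUM-149PT (156), HCC1395 (168) or HCC1143 (180). Of the 59 peaks named for this comparison that passed, 24 also passed under each of 20 alternatives, among them those of DLG2, PHACTR1, ANKRD1, ATF3, ZNF544, YIPF6, COPG1, CD44 and LHX2. The other 35 lost the call under at least 1, most often without BT-549 (30) or HCC1937 (27), and no named peak changed direction.

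**Figure D2:**
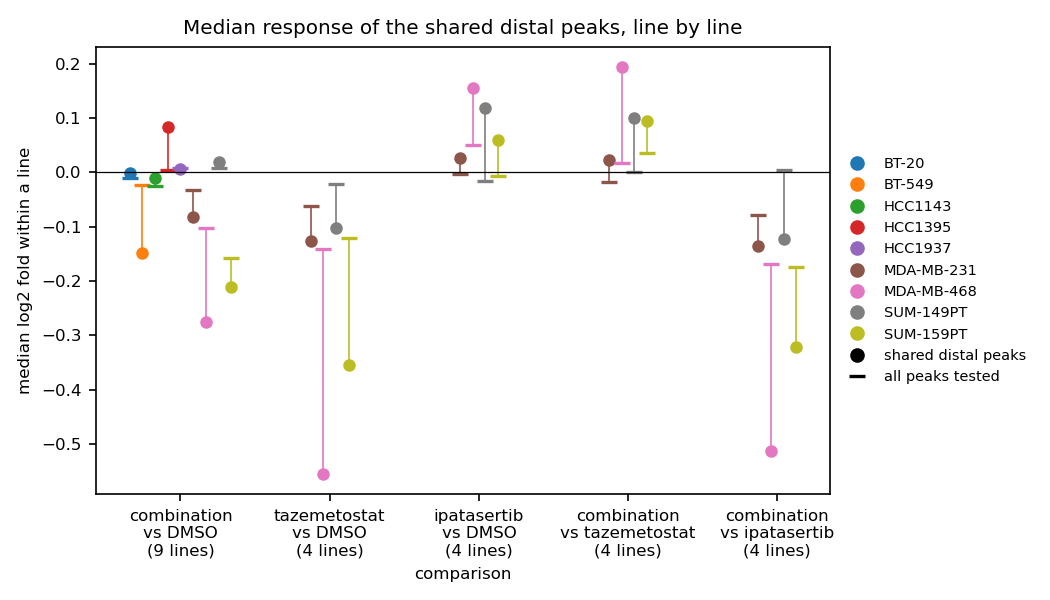
Median log2 fold change of the shared distal peaks (dots) and of all peaks tested (dashes) within each line, for 5 comparisons. With tazemetostat the member medians lie between -0.555 and -0.103 in the 4 lines, and with ipatasertib between 0.0271 and 0.155.

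Of the 8 largest rises, 5 were strictly distal (UNCX, ANKRD1, LOC112268257, ATF3 and LINC01033). The peak at an internal start of DLG2, a synaptic scaffold protein (chr11:83723612-83725512, 1902410 bp from the assigned TSS), was in DMSO at 2.23 CPM in BT-549, at a median of 3.7 and at 12.1 CPM in BT-20. With the combination its lowest, median and highest lines were at 4.49, 8.49 and 15.9 CPM. The ranges overlapped, but 8 of 9 lines were higher, from 2.95 to 13.4 CPM in MDA-MB-468, while HCC1143 went from 10.5 to 8.78 CPM. The log2 fold change was 0.93 (SE 0.166; edgeR adjusted p = 0.00891).

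The peak of PHACTR1, a regulator of protein phosphatase 1 and actin (chr6:12956982-12958424, 240428 bp), went from 2.03, 3.32 and 21.1 CPM (lowest, median and highest line) to 4.0, 9.57 and 24.8 CPM. It was higher in all 9 lines, least in MDA-MB-231 and most in MDA-MB-468 (log2 fold 0.9, SE 0.157, edgeR adjusted p = 0.00839). An intergenic peak 10810 bp from the TSS of ANKRD1, a target of YAP and TEAD (chr10:90929878-90931897), went from 3.83, 10.5 and 39.0 CPM to 5.79, 18.7 and 43.9 CPM. It too was higher in all 9 lines (0.76, SE 0.123, adjusted p = 0.00677), from 4.4 to 15.8 CPM in BT-549 and only from 39.0 to 43.9 CPM in MDA-MB-231.

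The other large rises were at UNCX, a homeobox gene (0.8), LOC112268257 (0.75), CPLX2, a regulator of synaptic vesicle release (0.73), ATF3, a stress-induced transcription factor (0.69), and LINC01033 (0.68), with adjusted p between 0.0097 and 0.0291. The ATF3 peak rose from a median of 5.7 to 9.6 CPM and in 8 of 9 lines, while MDA-MB-231 went from 6.66 to 5.48 CPM. Several rises at 1 gene were rare. RBFOX3, a neuronal splicing factor, had 3 of its 5 members risen.

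The largest fall was at an intergenic peak 20850 bp from the TSS of NR4A2, an immediate-early nuclear receptor (chr2:156321498-156323404). It was at 3.31 CPM in BT-20, a median of 5.35 and 24.4 CPM in MDA-MB-468 in DMSO, and at 0.629, 3.6 and 6.13 CPM with the combination. It was lower in 8 of 9 lines, from 9.88 to 1.33 CPM in MDA-MB-231, while HCC1395 went from 4.14 to 4.94 CPM (log2 fold -1.27, SE 0.294, edgeR adjusted p = 0.0261). The call was lost without BT-549, HCC1937, MDA-MB-468 or SUM-159PT, and with no filter on low counts. A strictly distal intronic peak of ZNF544, a zinc finger gene (chr19:58274691-58275316), fell from 2.66, 8.54 and 23.4 CPM to 0.609, 4.3 and 16.8 CPM. It was lower in all 9 lines (-0.89, SE 0.169, adjusted p = 0.011), although SUM-149PT went only from 8.55 to 8.21 CPM.

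The peak of YIPF6, a Golgi membrane protein (chrX:68508836-68510082), was even between lines in DMSO, from 2.37 to 4.65 CPM, and ranged from 0.593 to 3.2 CPM with the combination (-0.83, SE 0.156, adjusted p = 0.0103, 9 of 9 lines). The peak upstream of COPG1, a coatomer subunit (chr3:129231254-129231929), went from 2.4, 3.3 and 7.04 CPM to 1.14, 1.97 and 4.41 CPM (-0.82, SE 0.119, adjusted p = 0.00453, 9 of 9 lines). Other large falls were at 2 peaks of the lncRNA ZFAS1 (-0.96 and -0.8) and at FZR1, an activator of the anaphase-promoting complex (-0.8), with adjusted p between 0.00795 and 0.0272. Several of these peaks had their lowest DMSO line just above 2 CPM.

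**Figure D3:**
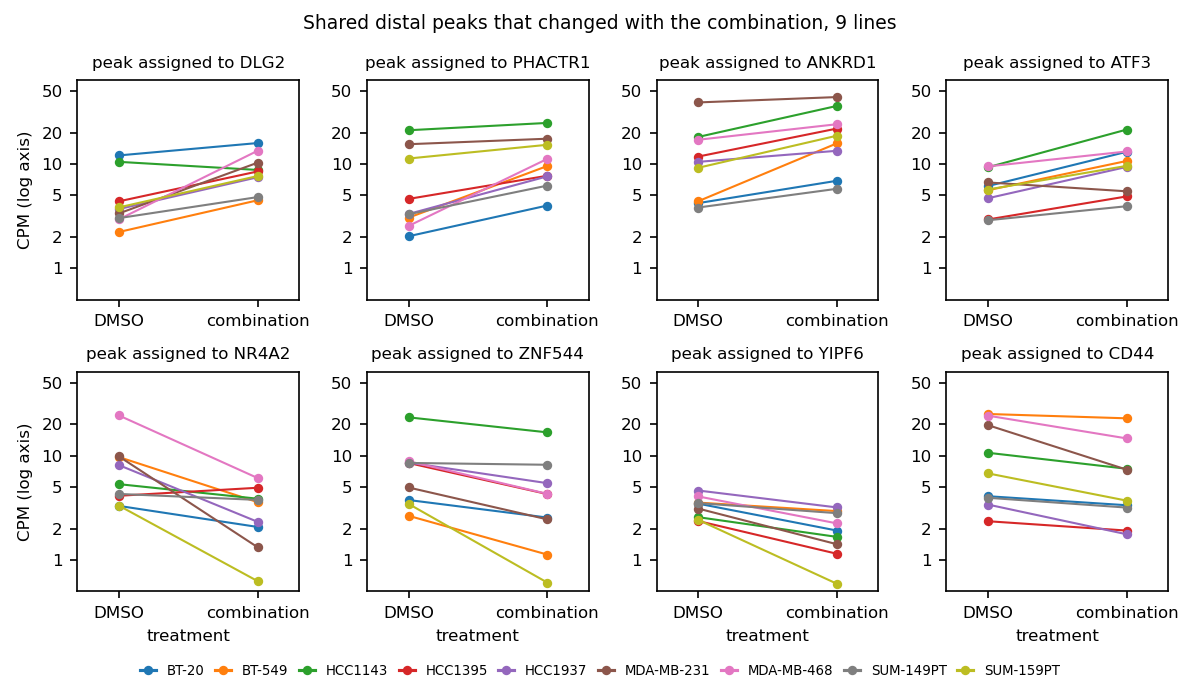
CPM (log axis, mean of 3 libraries) with DMSO and with the combination at 8 shared distal peaks, 1 line per cell line. The 4 peaks in the upper row rose and the 4 in the lower row fell, and HCC1143 at DLG2, MDA-MB-231 at ATF3 and HCC1395 at NR4A2 go against the direction of the rest.

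Some genes had several falls. They are named here for that number, after their values were seen and with no test, beside 5.9% of all members and 2.74% of all peaks fallen. CD44 had 6 of 11 members fallen, DNAJB12 5 of 8 and ADGRE5, an adhesion receptor, 5 of 5. BCAR3, ANXA2, MYH9 and AHNAK, which act in adhesion, membrane and cytoskeleton, had 4 of 13, 11, 10 and 8. EEF1A1, the translation elongation factor, and the chromatin remodeller gene CHD2 had 4 of 5, and SLC7A5, an amino acid transporter, 4 of 4. The median of the mean DMSO level was 12.4 CPM over members that fell and 7.2 CPM over those that rose. That level is also the baseline of the fold change and was used by the rule, so this is a description. Of the fallen, 29.3% were in exons and 14.9% intergenic, against 16.7% and 34.1% of the risen. By class, 8.74% of exonic, 7.79% of 5' UTR, 5.95% of intronic and 2.97% of intergenic members fell.

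**Figure D4:**
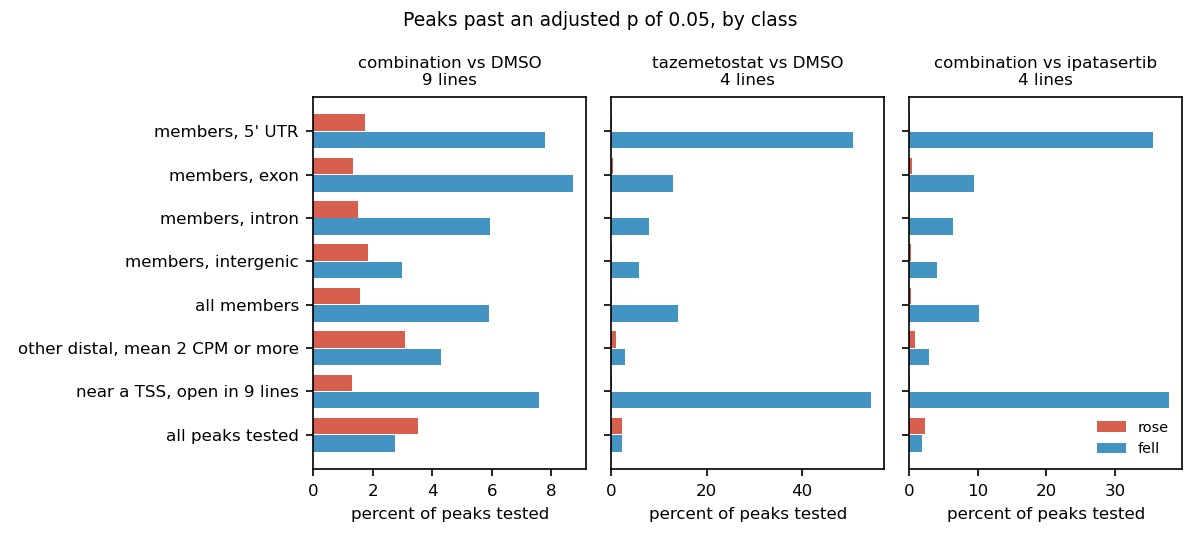
Percent of peaks tested that rose (red) or fell (blue) at an adjusted p under 0.05, by class of peak, in 3 comparisons. With tazemetostat 50.8% of 5' UTR members and 5.86% of intergenic members fell, beside 13.9% of all members and 54.5% of peaks near a TSS open in all lines.

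In the 4 lines with single agents, the median log2 fold change of members was -0.274 with tazemetostat alone and -0.176 with the combination. The direct comparison of these 2 treatments called 0 members, so a larger shift with tazemetostat was not shown by test. With tazemetostat 20 members rose (0.115%) and 2430 fell (13.9%), while 2.14% of all 565986 peaks tested rose and 2.23% fell. The median log2 fold change was -0.274, against -0.0325 for all peaks, and the line medians were -0.555 in MDA-MB-468, -0.354 in SUM-159PT, -0.126 in MDA-MB-231 and -0.103 in SUM-149PT. Of members, 1 rose and 2 fell by a log2 fold of 1 or more (1.96% and 0.211% of all peaks). The share that fell was 5.15% of members with a lowest DMSO line of 2 to 3 CPM, 6.72% at 3 to 5, 15.5% at 5 to 10 and 47.7% at 10 CPM or more, while the median log2 fold changes were -0.235, -0.25, -0.282 and -0.346. This level was used by the rule and is the baseline of the comparison, and more counts make a call easier, so the shares are a description. Peaks near a TSS gave 54.5%, 5' UTR members 50.8% and strictly distal members 7.83% (1029).

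The size of these counts depended on the scaling. Among the scalings tried, their direction changed only with offsets that follow abundance, which by construction remove any difference tied to peak level. With these offsets 160 members rose and 135 fell with tazemetostat, and the medians of members and of all peaks were -0.0365 and -0.0547. DESeq2 gave 36 rises and 3581 falls, and size factors in edgeR 16 and 2417. With library totals in place of TMM the median of all peaks moved to 0.139 and that of members to -0.105, and 138 rose and 1638 fell. The number that fell was 0 without SUM-159PT, 29 without MDA-MB-231, 255 without MDA-MB-468 and 893 without SUM-149PT, and it was 1477 without the second and 4018 without the third library of each group. For the combination over 9 lines the same abundance offsets gave 665 rises and 1201 falls, and library totals 452 and 1351.

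The DLG2 peak rose most with tazemetostat. In MDA-MB-231, MDA-MB-468, SUM-149PT and SUM-159PT it was at 3.36, 2.95, 3.03 and 3.84 CPM with DMSO and at 11.9, 13.1, 5.49 and 7.34 CPM with tazemetostat. Every tazemetostat value lay above every DMSO value. The log2 fold change was 1.29 (SE 0.21; edgeR adjusted p = 0.0109), and the call was lost without MDA-MB-231. The 9 peaks with a call named for tazemetostat each lost it without at least 1 line, and 8 of them without SUM-159PT.

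A peak beside a RefSeq start of PAX2, a paired-box developmental gene (chr10:100743001-100744753), rose from 8.11, 4.17, 3.9 and 3.26 CPM to 11.5, 7.94, 6.09 and 9.21 CPM in the same order (0.72, SE 0.152, adjusted p = 0.0201). It was higher in all 4 lines with overlap of the groups. The peak of MEG8, an imprinted lncRNA gene, which lies 633 bp from a start of RTL1, was higher in all 4 lines, least in SUM-159PT, from 2.93 to 4.02 CPM, and most in MDA-MB-468, from 2.87 CPM (0.79, SE 0.192, adjusted p = 0.0294), and an intergenic peak of LOC105377740 rose by 0.76.

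The largest falls with tazemetostat were at FZR1, from 7.89, 14.7, 6.45 and 6.87 CPM to 7.06, 4.94, 2.73 and 2.76 CPM (log2 fold -1.23, SE 0.22, adjusted p = 0.0143), least in MDA-MB-231. ZNF544 went from 4.97, 8.88, 8.55 and 3.46 CPM to 2.37, 4.6, 7.57 and 1.02 CPM (-1.14, SE 0.268, adjusted p = 0.0291). An intronic peak of SPIN1, a reader of histone methylation, went from 14.1, 2.45, 15.6 and 6.57 CPM to 10.4, 1.17, 12.8 and 2.04 CPM (-0.96, SE 0.247, adjusted p = 0.0402). These 3 peaks were lower in 4 of 4 lines, and the groups overlapped. The CDKN1B promoter peak, a smaller fall of -0.46 (edgeR adjusted p = 0.0245), went from 23.6, 20.4, 26.3 and 21.8 CPM to 20.5, 15.0, 22.4 and 17.5 CPM. The fold change is on the TMM scale, so it differs from the change in CPM. Its call held under 8 of 14 alternatives, with values of -0.5 to -0.11, and was lost with the abundance offsets.

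Ipatasertib alone moved no member past the threshold. Of all peaks tested 0.0% rose and 0.0% fell, 0 members rose or fell by edgeR, the smallest adjusted p of a member was 1.0, and DESeq2 also called 0. At an unadjusted p under 0.05, 396 of the 17439 members were higher and 7 lower, beside 4944 and 4942 of all 565986 peaks tested. That is below the share of 0.05 expected with no effect, so the absence of calls does not show an absence of change. The median log2 fold change of members was 0.0904 (0.00898 for all peaks), above 0 in each of the 4 lines, and -0.00816 with the abundance offsets. The largest values in 1 direction in all 4 lines, none past the test, were 0.61 at a peak of FZD2, a Wnt receptor (31.6, 7.66, 2.29 and 6.2 CPM with DMSO, 32.6, 12.3, 4.26 and 9.16 CPM with ipatasertib), 0.55 at JAZF1, -0.46 at COPG1 and -0.44 at FRMD4A.

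Comparisons between treated groups use no library that chose the members. Combination against tazemetostat, which shows the addition of ipatasertib, called 0 members in either direction and 0.0% of all peaks by edgeR, and DESeq2 also called 0. At an unadjusted p under 0.05, 500 of the 17439 members were higher and 10 lower, beside 4979 and 6025 of all 565986 peaks tested. This too is below the share of 0.05 expected with no effect, so it does not show an absence of change. The member median was 0.0989, against 0.00305 for all peaks, and -0.00425 with the abundance offsets. The largest values, none past the test, were 0.69 at TMEM255B (18.9, 5.08, 5.28 and 4.05 CPM with tazemetostat, 20.1, 9.07, 8.27 and 8.13 CPM with the combination), 0.67 at TMC1, -0.59 at NR4A2 and -0.52 at COPG1.

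Combination against ipatasertib, which shows the addition of tazemetostat, gave 31 rises (0.178%) and 1757 falls (10.1%), against 2.23% and 1.79% of all peaks. The member median was -0.271, against -0.0471. DLG2 rose from 3.43, 2.41, 2.96 and 3.96 CPM to 10.3, 13.4, 4.82 and 7.67 CPM (log2 fold 1.27, SE 0.211, adjusted p = 0.00895), with every combination value above every ipatasertib value. LINC01987 rose by 0.99 (adjusted p = 0.0221), although MDA-MB-231 only went from 3.69 to 4.55 CPM. An intronic peak of PAFAH1B1, a regulator of dynein, went from 3.88, 5.81, 9.33 and 3.59 CPM to 1.69, 2.79, 7.75 and 1.27 CPM (-1.11, SE 0.217, adjusted p = 0.0165), and ZNF544 fell by 1.11 (adjusted p = 0.0353). This comparison too depended on the scaling: library totals gave 147 rises and 1003 falls, and the abundance offsets 162 and 114, with member and all-peak medians of -0.0353 and -0.0625. The falls numbered 0 without SUM-159PT, 35 without MDA-MB-468, 73 without MDA-MB-231 and 317 without SUM-149PT, and 977 without the second and 2959 without the third library of each group. Of the 4 peaks named here, DLG2 alone passed under each of 14 alternatives.

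No departure from the sum of the single agents was called in any member. The combination minus both single agents plus DMSO, on the log2 scale, called 0 members and 0.0% of all peaks by edgeR. At an unadjusted p under 0.05 there was 1 member (0.00573%, against 0.725% of all peaks), the smallest adjusted p was 1.0, and the member median was 0.00709. With no effect, an unadjusted p under 0.05 is expected in a share of 0.05. Far fewer members passed, so the test was too conservative here to show that the agents add up. In the same 4 lines the combination against DMSO gave 43 rises (0.247%) and 504 falls (2.89%), beside 1.78% and 0.888% of all peaks. All 3 comparisons with DMSO share its libraries. The 2430 members that fell with tazemetostat had medians of -0.435 with it, -0.312 with the combination and 0.0818 with ipatasertib, and the 20 that rose had 0.596, 0.674 and 0.104.

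**Figure D5:**
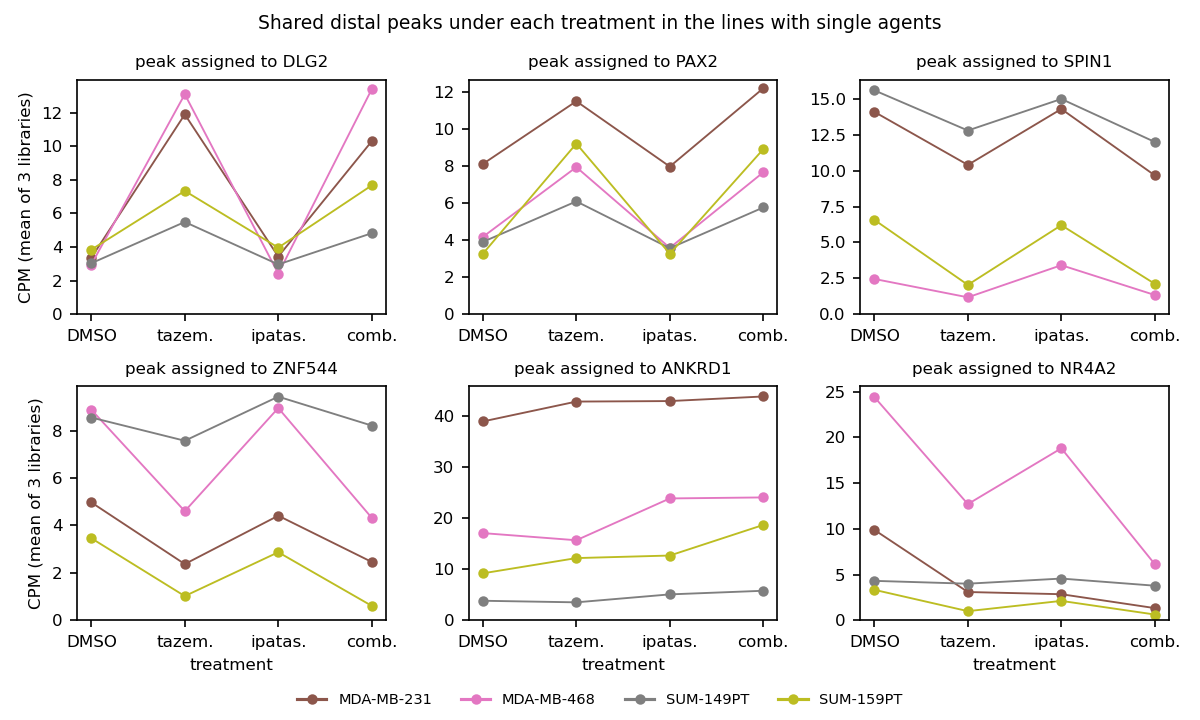
CPM (mean of 3 libraries, axes from 0) with DMSO, tazemetostat, ipatasertib and the combination at 6 shared distal peaks in MDA-MB-231, MDA-MB-468, SUM-149PT and SUM-159PT. DLG2 is high with tazemetostat and the combination in all 4 lines, whereas ANKRD1 is above DMSO with ipatasertib and the combination in all 4.

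At ANKRD1 and NR4A2 neither agent alone passed the test in the 4 single-agent lines. Fold changes are on the TMM scale and can differ in size and sign from changes in CPM. ANKRD1 was at 39.0, 17.1, 3.83 and 9.21 CPM with DMSO, 42.9, 15.7, 3.52 and 12.2 CPM with tazemetostat, 43.0, 23.9, 5.08 and 12.7 CPM with ipatasertib, and 43.9, 24.1, 5.79 and 18.7 CPM with the combination. The log2 fold change with ipatasertib was 0.44 (adjusted p = 1.0) and with tazemetostat -0.0847 (adjusted p = 0.764). NR4A2 was at 9.88, 24.4, 4.31 and 3.33 CPM with DMSO, 3.09, 12.7, 4.0 and 0.997 CPM with tazemetostat, 2.85, 18.8, 4.56 and 2.12 CPM with ipatasertib, and 1.33, 6.13, 3.78 and 0.629 CPM with the combination. Its changes of -1.35 with tazemetostat (adjusted p = 0.0512) and -0.67 with ipatasertib (adjusted p = 1.0) did not pass in these 4 lines.

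Gene lists were read by the authors' assigned gene, which names a neighbourhood and not a target, so they do not show which pathways the members act in. The share of all annotated genes with a member was not counted, so the coverage of a list is a description. Counts in each list stand beside the shares over members and all peaks: with the combination 1.58% and 3.52% rose and 5.9% and 2.74% fell, and with tazemetostat 13.9% and 2.23% fell. Adhesion and cytoskeleton genes had the most peaks, 106 at 22 of 26 genes, of which 0 rose and 28 fell with the combination (median log2 fold -0.165, against -0.066 over members). With tazemetostat 24 of the 106 fell, but 12 with library totals and, with the abundance offsets, 1 fell and 1 rose. At ANXA2 a peak at chr15:60394074-60394644 went from 2.95, 5.27 and 10.8 CPM to 1.55, 3.4 and 5.75 CPM with the combination (-0.68, SE 0.116, adjusted p = 0.00728, 9 of 9 lines). At CD44 the intronic peak at chr11:35151055-35152990 went from 2.36, 6.79 and 25.2 CPM to 1.77, 3.72 and 22.9 CPM (-0.63, SE 0.12, adjusted p = 0.0106, 9 of 9 lines), most in MDA-MB-231, from 19.7 to 7.38 CPM. At LMNA a peak fell by 0.44.

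Targets of YAP and TEAD had members at 18 of 20 genes (49 peaks; 1 rose, at ANKRD1, and 1 fell, at YAP1 by 0.33, while 4 rose and 2 fell with the abundance offsets). TGF-beta and SMAD genes had members at 14 of 15 (56 peaks, 0 rose, 1 fell, at SKI by 0.59, while 2 rose and 1 fell with those offsets). AP-1 and immediate-early genes had 33 peaks with 1 rise (ATF3) and 3 falls, among them IER2 (-0.44) and FOSL2 (-0.4). NF-kappaB genes had 26 peaks with 0 rises and 3 falls (6 with library totals and 6 with the abundance offsets), TNFAIP2 (-0.4), TNIP1 (-0.35) and BCL3 (-0.24).

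AKT, PI3K and mTOR genes had 28 peaks at 10 of 20 genes. With the combination 1 rose, at INPP4B, a phosphoinositide phosphatase (0.31, adjusted p = 0.0313), and 5 fell, among them DDIT4 (-0.35) and RPTOR, the mTORC1 scaffold (-0.3). The RPTOR call was lost under 9 of 20 alternatives, DESeq2 among them, and the DDIT4 call under 0. The INPP4B call held under 13 of the 20. Targets of FOXO had 37 peaks at 12 of 22 genes with 1 rise, at CCNG2, which encodes cyclin G2 (0.49, adjusted p = 0.0273, 8 of 9 lines), and 2 falls. The CCNG2 peak went from 2.31, 6.75 and 13.7 CPM to 7.01, 9.51 and 16.9 CPM. With tazemetostat 11 of the 28 AKT pathway peaks (1 with the abundance offsets) and 0 of the 37 FOXO target peaks fell. For FOXO targets DESeq2 called 1 fall and the abundance offsets 1 rise. The share fallen was larger for sterol genes (10 of 22) and CDK inhibitor and p53 genes (5 of 10). It was smaller for NF-kappaB (8 of 26) and housekeeping genes (10 of 33). With the abundance offsets each of these 4 lists had 0 or 1 fall.

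A list of PRC2 genes, which also holds KDM6B, an H3K27 demethylase and not a part of PRC2, had 8 peaks at 5 of 15 genes. Of these 0 rose and 3 fell with the combination. The falls were 2 at KDM6B (-0.23 and -0.21) and 1 at PHF19, a PRC2 accessory factor (-0.2). DESeq2 called 0 of these 8 and the abundance offsets 1. Developmental genes that PRC2 keeps silent in many tissues had 22 peaks at 13 of 40 genes. With the combination 4 of these rose and 0 fell (median 0.0614, against -0.066 over members), among them LHX2, a LIM homeobox gene (0.57, adjusted p = 0.00705), and 2 peaks of PAX2 (0.57 and 0.54, adjusted p 0.0307 and 0.0171). With tazemetostat 1 rose and 2 fell (median -0.147, against -0.274 over members), which turned to 4 rises and 1 fall with library totals (median 0.0216) and to 1 rise and 0 falls with the abundance offsets (0.0504).

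Of metabolic and proliferation lists, sterol genes controlled by SREBP had 22 peaks with 0 rises and 4 falls, among them SREBF1, a transcription factor of that group (-0.46, adjusted p = 0.00966), and a median of -0.211. Cell cycle genes had 26 peaks with 1 rise and 6 falls. These included 2 falls at RRM2, a subunit of ribonucleotide reductase (-0.71 and -0.6), and 1 at MCM5, a subunit of the replicative helicase (-0.42). The MCM5 call held under 10 of 20 alternatives and the RRM2 calls under 15 and 16. CDK inhibitor and p53 genes had 10 peaks with 1 fall, at MDM2 (-0.47), a call that held under 13 of 20 alternatives. Housekeeping genes had 33 peaks at 9 of 18 genes with 0 rises and 10 falls (median -0.182), led by an intronic peak of EEF1A1 that went from 8.59, 25.6 and 50.3 CPM to 4.24, 14.0 and 46.7 CPM (-0.56, adjusted p = 0.00773). The BCL2 family had 20 peaks and chromatin architecture genes 7, and edgeR called 0 of either with the combination. Genes of gp130 and STAT3 signalling had 14 with 1 fall, at OSMR (-0.24), which was lost under 14 of 20 alternatives, DESeq2 and library totals among them, and ERK feedback genes 14 with 1 fall. Receptor tyrosine kinase genes had 48 peaks at 14 of 19 genes with 0 rises and 7 falls (2 and 6 with the abundance offsets). Among the falls were DDR2 (-0.37), MET (-0.29) and the internal EGFR start printed above (-0.28). These calls held under 12, 11 and 17 of 20 alternatives. The EGFR peak ranged from 4.84 CPM in MDA-MB-231 to 67.0 CPM in MDA-MB-468 with DMSO.

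Among markers of cell identity, basal epithelial genes had 30 peaks at 9 of 18 genes with 5 falls. These included CDH3, P-cadherin (-0.41), and TP63, the basal transcription factor (-0.32). The TP63 peak ranged from 2.88 CPM in MDA-MB-231 to 50.3 CPM in HCC1937. Its call held under 12 of 20 alternatives, and was lost with library totals, while the CDH3 call held under 20. Luminal epithelial genes had 33 at 13 of 24 genes with 3 falls, at TFAP2A (-0.29), EHF (-0.24) and CLDN4 (-0.24). These 3 calls held under 12, 11 and 13 of 20 alternatives. Mesenchymal genes had 12 peaks at 7 of 19 genes with 1 rise, at COL6A1 (0.39). That call held under 10 of 20 alternatives. Of lists foreign to these cultures, immune genes had 4 peaks at 3 of 17 genes, endothelial genes 16 at 5 of 15, and adipocyte, myoepithelial and stromal genes 4 at 3 of 12. None of these 24 peaks passed edgeR's main test with the combination or with tazemetostat. With the combination 1 endothelial peak rose by DESeq2, and 1 rose in edgeR with library totals.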

How the data were processed

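ATAC-seq counts per peak came from 1 table that the authors deposited, as whole numbers not normalized, with a column for each of the 78 libraries, and 0 columns matched no sample. Per the submitters' processing notes MACS2, featureCounts and the hg38 build were used. For their versions, the aligner, duplicate removal and the Tn5 shift, the sources used here give nothing, and PCR duplicates left in would make counts look more precise than they are. The authors' peak table, per its file headers, gave coordinates, a class, an assigned gene and a distance to its TSS, and 61 peaks had no symbol. RefSeq (GRCh38.p14) tables gave gene starts, promoter windows and miRNA sequences, and 99.3% of the 8529 assigned genes matched by ID. Of 16224 peaks at distance 0 of their assigned gene, 10367 had that gene as the nearest RefSeq start. In 9578 of these 10367 (92.4%) the start lay inside the peak. The remaining peaks did not enter this percentage.

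CPM are counts over the library total, averaged over the 3 libraries of a group. Log2 fold changes are on the TMM scale of the fits, so they can differ from changes in the printed CPM. Tests used edgeR 4.0.16 in R 4.3.3 (quasi-likelihood, TMM, filterByExpr with a minimum count of 10) on sums of the 3 libraries, with the cell line as block, over all peaks that passed the filter, and Benjamini-Hochberg adjustment over all of them at 0.05. All 17439 members passed the filter, and runs joined members within 10000 bp. The biological coefficient of variation was 21.3% over 9 lines and 21.6% over 4. The code was tested on simulated counts. These had a smaller spread than the data and the same change in every line, so they do not show the power of the tests here. The 4-line comparisons were contrasts in 1 fit of 16 sums. DESeq2 1.42.0, other scalings (among them offsets from the loess function of R, span 0.3), filters, member rules and left-out lines and libraries were alternatives. Library totals ran from 12292571 to 21459284 counts.

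Members and gene lists (24) were chosen with earlier results of these data known. Named peaks were the 8 strongest, the 4 most and 4 least even, up to 8 of the largest rises and falls with the combination in at least 8 of 9 lines, 4 with tazemetostat and 2 in the other comparisons, 6 genes with the most members, and up to 3 per list. Other genes were named after their values were seen, and peaks on chromosome 8 were counted but mostly not named. Values of a few genes are not reported here.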

Additional observations from a re-analysis of the deposited data

Results flagged for a closer look

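Values that stood apart among the 9 lines were looked for with Dixon's test at 95%, which flags about 1 in 20 groups by chance. MDA-MB-231 had 21.5% of its combination counts in the shared distal peaks, above every other line. In DMSO the ANKRD1 peak was at 39.0 CPM in MDA-MB-231, the NR4A2 peak at 24.4 CPM in MDA-MB-468 and the ZNF544 peak at 23.4 CPM in HCC1143, each far above the other lines. HCC1395 went against most lines: the share of its counts in members was 0.196 percentage points higher with the combination (19.3% and 19.5%), with all 3 combination libraries above all 3 DMSO libraries. In BT-549, HCC1143, HCC1937, MDA-MB-231, MDA-MB-468 and SUM-159PT every combination library lay below every DMSO library. This difference was not tested. HCC1395 DMSO replicate 3 differed from its group by more than sampling noise.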

How the results depend on the processing

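Values are percent of members called, rises before falls. For the combination over 9 lines (1.58 and 5.9), library totals gave 2.59 rises, abundance-trended offsets 3.81, no low-count filter 1.04, a minimum count of 30 gave 2.78 and 9.01, a rule at 4 CPM 0.885 rises, and a rule on the combination libraries 3.28. Leave-outs gave 0.86 to 1.89 rises and 2.38 to 8.52 falls, and 306 rises and 1132 falls without HCC1395 DMSO replicate 3. The member median (-0.066) kept its sign, at -0.0802 to -0.0415 in leave-outs. For tazemetostat (0.115 and 13.9), rises were 0.206 by DESeq2, 0.791 with library totals, 0.917 with trended offsets, 0.0573 with no filter, 0.464 at a minimum of 30, 0.38 at 1 CPM, 0.0249 at 4 CPM, 0.438 with the combination-chosen rule and 0.00573 to 0.178 in leave-outs. Falls were 0.774 with trended offsets, 4.07 with no filter, 21.2 at a minimum of 30, 8.79 at 1 CPM, 24.0 at 4 CPM, 7.83 in strictly distal members and 0.0 to 23.0 in leave-outs. For the combination against ipatasertib (0.178 and 10.1), rises were 0.333 by DESeq2, 0.843 with library totals, 0.929 with trended offsets, 0.0975 with no filter, 0.631 at a minimum of 30, 0.477 at 1 CPM, 0.0374 at 4 CPM, 0.516 with the combination-chosen rule and 0.00573 to 0.298 in leave-outs. Falls were 18.6 by DESeq2, 5.75 with library totals, 0.654 with trended offsets, 2.17 with no filter, 16.2 at a minimum of 30, 16.4 at 4 CPM, 5.98 in strictly distal members and 0.0 to 17.0 in leave-outs. The rule itself found 35222 peaks at 1 CPM, 8027 at 4 CPM and 17294 without HCC1395 DMSO replicate 3. The causes were not tested, beyond the fewer lines of a leave-out and the higher levels that a stricter rule keeps. DESeq2 and size factors in edgeR otherwise kept these counts within 1.5 times.

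Single libraries with the replicate number as a block called more, since libraries of a line then count as replicates: 11.6 and 35.3 with the combination, 3.72 and 56.6 with tazemetostat, 0.442 and 0.0459 with ipatasertib, 1.77 and 0.115 for combination against tazemetostat, and 3.8 and 56.4 against ipatasertib. Whether the numbers pair the libraries could not be settled. Correlations of same-numbered deviations lay between -0.0225 and 0.0448, with a median of 0.01 against -0.000284 for different numbers. Of 27 DMSO libraries, 13 correlated best with their own number among 3. Deviations at the level of sampling noise give correlations near 0 even where libraries are paired. The non-additive term called 0 members in each of 19 alternatives. The single-agent comparisons rest on 4 lines, and limits set by depth were not tested.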
